A study of Canis lupus familiaris with 6 samples.

Results

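The 9 genes described here mark mast cells, basophils and eosinophils, the granulocytes of allergy and of defence against parasites. They were taken by symbol (FCER1A, MS4A2, CMA1, CPA3, HDC, GATA2, KIT, IL5RA and IL3RA) from the 31512 genes in the deposited table, and all 9 were found there. RNA-seq was run on whole blood of 3 Beagle dogs of the control group and 3 of the CPP-Se group, with 1 library per dog. All dogs came from a trial of 12 healthy adults aged 1.5 years, ate the same maintenance food, and received 30 g of snack, which held 0.03% CPP-Se (a chelate of selenium with phosphopeptides cut from milk casein) in the CPP-Se group and none in the control group. Blood was drawn on day 30.

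Mast cells and basophils carry the high-affinity receptor for IgE, and an antigen that crosslinks the bound IgE makes them release granules with histamine, proteases and proteoglycans. Mast cells mature in tissues and are rare in blood, whereas basophils and eosinophils circulate. Interleukin-3 drives basophils and interleukin-5 drives eosinophils through receptors that share one signaling chain, and KIT, the receptor of stem cell factor, maintains mast cells and blood progenitors. GATA2 is a transcription factor of all of these cells and of blood stem cells.

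FPKM (fragments scaled to the gene's length and the size of the library) were deposited, and the reads on each gene were recovered from them as whole numbers. The 6 libraries held between 6598173 and 8067034 reads on genes. CPP-Se replicate 2 stood apart: its hemoglobin genes took 36.6% of these reads, against 48.7% to 55.9% in the other dogs, and 1 read on a gene of 1 kb was worth 0.0750 FPKM in it, against 0.124 to 0.163 FPKM elsewhere. The library size implied by its FPKM was 1.65 times its reads on genes, against 0.882 to 1.05 times in the other dogs, which lowers every FPKM of this dog relative to its reads. Over genes above 0 in every dog, the FPKM of this dog had a median ratio of 1.006 to the geometric mean of the dogs. That ratio was 1.013 to 1.021 in the other dogs, so its FPKM were nearly level with theirs for such genes. As this dog stood apart in hemoglobin share and implied size, values are given dog by dog, in FPKM and in reads. Results that rest on it are given with and without it. The means of 6 members over the 6 dogs reached 1 FPKM, and these 6 entered the test, IL5RA with the lowest mean, 1.61 FPKM. CPA3 and IL3RA reached the limit only through the CPP-Se group and IL5RA only through the control group, so their entry into the test rests on the group in which they were higher. FCER1A (mean 0.798 FPKM), KIT and HDC stayed under that limit, so their statistics come from a second fit of all genes with any read. A count of 3 reads or fewer was treated as the floor, which covers counting error only.

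CMA1 is the member that was also measured by RT-qPCR in the study, and the primers used for it are shown for that reason. The study reports that the RT-qPCR trends of its chosen genes, CMA1 among them, went the same way as its sequencing. No base is marked in capitals.

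CMA1 forward: caggctctgacactctgcaa

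CMA1 reverse: acacaattccctgggctacc

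**Figure D1:**
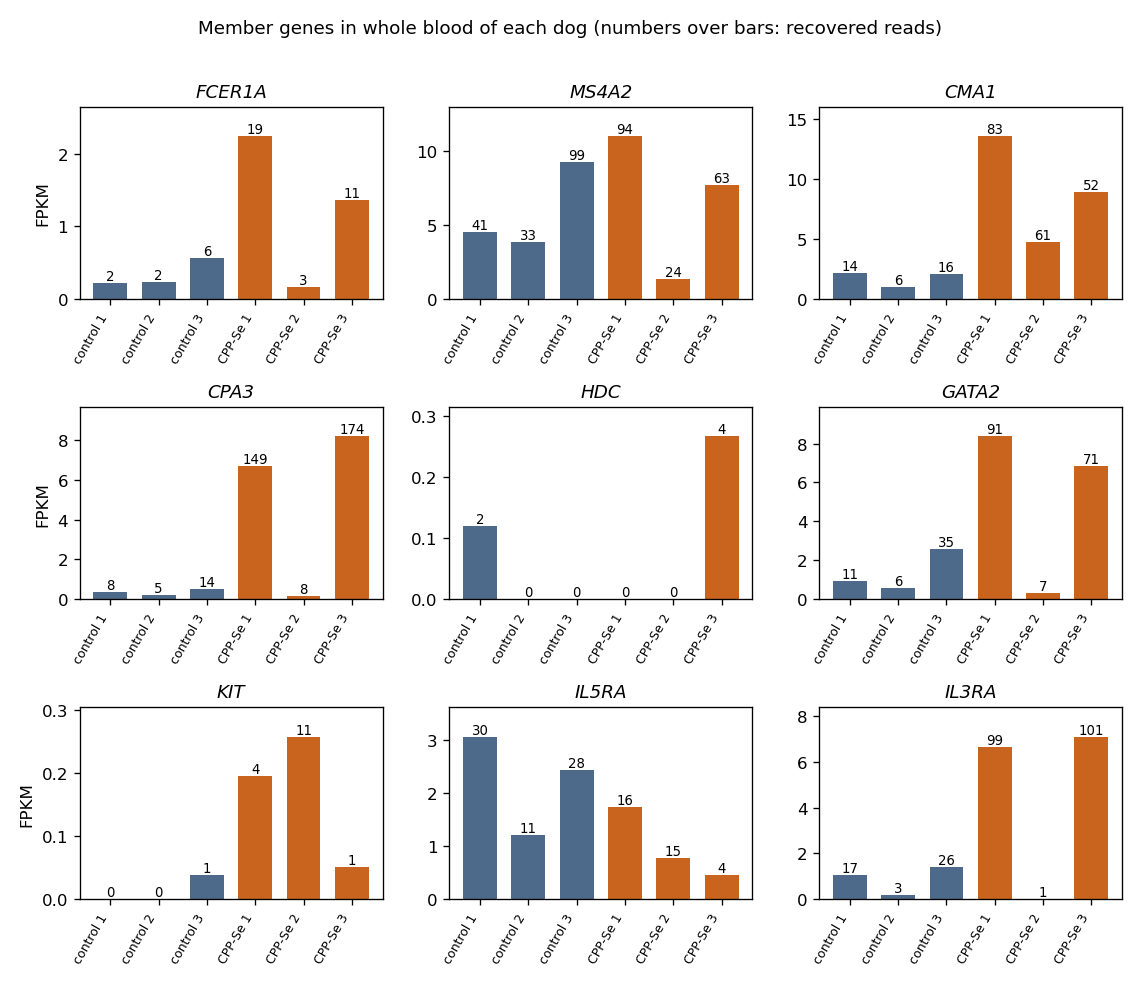
Each panel plots 1 member gene, with the 6 dogs on the horizontal axis (control in blue, CPP-Se in orange), FPKM on the vertical axis from 0, and the recovered reads printed over each bar. CPA3, IL3RA, GATA2 and FCER1A are high in CPP-Se replicates 1 and 3 and low in CPP-Se replicate 2, CMA1 is above the controls in all 3 CPP-Se dogs, and HDC and KIT rest on 11 reads or fewer in every dog.

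A gene counted as called where limma gave a Benjamini-Hochberg adjusted p below 0.05 and the groups differed 1.5-fold or more. No member was called, and of the 9847 genes tested 3 were, a share of 0.0305%. Of the 6 members tested, 4 had a positive and 2 a negative log2 fold change. CMA1 and CPA3 had an unadjusted p under 0.05 with higher values in the CPP-Se group, where 6.87% of all genes tested did so. Of these 6 members, only CMA1 was without overlap between the groups, higher in the CPP-Se group, against 10.4% of all genes tested. Limma-voom on the recovered reads also called 0 members, with an unadjusted p under 0.05 for 1 of the 6.

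Among the granule genes, CMA1 (ENSCAFG00000012443, chromosome 8, 4438244 to 4441189, minus strand) encodes chymase, a serine protease stored in mast cell granules. CMA1 was at 2.15, 0.984 and 2.08 FPKM in control replicates 1, 2 and 3 (14, 6 and 16 reads) and at 13.6, 4.78 and 8.89 FPKM in CPP-Se replicates 1, 2 and 3 (83, 61 and 52 reads). Each CPP-Se dog thus lay above each control dog. The group means were 1.74 ± 0.653 and 9.08 ± 4.39 FPKM (SD, n = 3 dogs per group here and throughout), a ratio of 5.23. The log2 fold change of FPKM + 1 was 1.81 (standard error 0.36, unadjusted p = 0.00107, adjusted p = 0.138 from limma). CMA1 passed the thresholds in 1 of the 14 other settings, a common sum of FPKM for every dog (adjusted p = 0.0381), and in the remaining ones its adjusted p reached up to 0.455. As CMA1 stands in the study's own list of changed genes, found from these libraries with DESeq2, its direction here is not independent evidence.

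CPA3 (ENSCAFG00000008235, chromosome 23, 43679361 to 43748213, plus strand) encodes carboxypeptidase A3, a granule protease of mast cells that human basophils also express. Its level was 0.338, 0.226 and 0.502 FPKM among the controls (8, 5 and 14 reads). In the CPP-Se dogs it was 6.71, 0.173 and 8.19 FPKM (149, 8 and 174 reads). CPP-Se replicates 1 and 3 were far above every control dog, while CPP-Se replicate 2 was the lowest of all 6 in FPKM and within the range of the controls in reads. With all dogs the log2 fold change was 1.69 (standard error 0.72, unadjusted p = 0.0471, adjusted p = 0.304 from limma). Without CPP-Se replicate 2 it was 2.64 (standard error 0.25, adjusted p = 0.0368 from limma), and CPA3 was then 1 of 9 genes called higher, 0.0914% of those tested. That call did not hold without the filter, through which CPA3 had passed by its CPP-Se values (adjusted p = 0.126 from limma without CPP-Se replicate 2). With all dogs, the unadjusted p was 0.0639 from limma without the filter and 0.396 from limma-voom. The log2 fold change of CPA3 was 1.28 without CPP-Se replicate 1 and 1.155 without CPP-Se replicate 3, and the gene was not called in either.

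HDC (ENSCAFG00000015072, chromosome 30, 16201589 to 16223662, minus strand), which encodes the enzyme that makes histamine, had 2, 0 and 0 reads among the controls and 0, 0 and 4 reads among CPP-Se dogs. A difference between the groups was not detectable at this depth (adjusted p = 0.852 from limma without a filter). Other granule proteases could be followed only by their protein descriptions, as their rows carry no symbol, and these rows were picked after the symbols had been found missing. The gene described as tryptase (ENSCAFG00000031939), the most abundant protease of mast cells, had 1 read in CPP-Se replicate 2 and 0 in the other dogs. Mastin (ENSCAFG00000019593), a serine protease of dog mast cells, had 8, 1 and 21 reads among the controls and 7, 6 and 23 among CPP-Se dogs, so the groups overlapped. A gene described as mast cell protease 4 (ENSCAFG00000025404), which lies close to CMA1 on chromosome 8, was at 0 in every dog. How the counting treated reads shared between such related proteases is not given in the sources used here.

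GATA2 (ENSCAFG00000004143, chromosome 20, 2473912 to 2480991, minus strand) was at 0.949, 0.554 and 2.56 FPKM among the controls (11, 6 and 35 reads) and at 8.37, 0.309 and 6.83 FPKM among CPP-Se dogs (91, 7 and 71 reads). As for CPA3, CPP-Se replicates 1 and 3 were above all controls, and CPP-Se replicate 2 was below them in FPKM. The log2 fold change was 1.05 (standard error 0.72, adjusted p = 0.525 from limma). Without CPP-Se replicate 2 it was 1.95 (standard error 0.38, adjusted p = 0.136 from limma). It was 0.54 without CPP-Se replicate 1, 0.66 without CPP-Se replicate 3 and 0.48 with limma-voom, and GATA2 was called in none of these fits.

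The IgE receptor genes were expressed at unlike levels. FCER1A (ENSCAFG00000011755, chromosome 38, 22683477 to 22690763, minus strand), the chain that binds IgE, was at 0.221, 0.237 and 0.563 FPKM among the controls (2, 2 and 6 reads). The CPP-Se dogs had 2.24, 0.170 and 1.36 FPKM (19, 3 and 11 reads). CPP-Se replicates 1 and 3 were again the highest of the 6 dogs, and CPP-Se replicate 2 was the lowest in FPKM but not in reads. In the fit without a filter, the log2 fold change was 0.64 (standard error 0.37, adjusted p = 0.584 from limma). It was 1.05 (standard error 0.25, adjusted p = 0.232 from limma) without CPP-Se replicate 2, and 0.32 without CPP-Se replicate 1.

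MS4A2 (ENSCAFG00000010352, chromosome 21, 50450024 to 50456785, plus strand), the beta chain that amplifies the receptor's signal, had the highest mean FPKM of the 9 members. Its level was 4.51, 3.89 and 9.25 FPKM among the controls (41, 33 and 99 reads) and 11.03, 1.35 and 7.73 FPKM among CPP-Se dogs (94, 24 and 63 reads). The groups overlapped, with control replicate 3 between CPP-Se replicates 1 and 3, and CPP-Se replicate 2 below all others. The log2 fold change was -0.05 (standard error 0.59, adjusted p = 0.973 from limma), and its sign turned to 0.65 without CPP-Se replicate 2, to 0.27 without control replicate 3 and to 0.03 with a common sum of FPKM. An unnamed copy of MS4A2 on the same chromosome (ENSCAFG00000029325) was at 0 in every dog. FCER1G, the signaling chain that the IgE receptor shares with other Fc receptors of myeloid cells, was at 650 to 854 FPKM among the controls and at 448 to 563 FPKM among CPP-Se dogs, on the same scale per length.

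IL3RA (ENSCAFG00000011047, chromosome X, 894552 to 911556, plus strand), the interleukin-3 receptor chain of basophils and plasmacytoid dendritic cells, was at 1.07, 0.202 and 1.39 FPKM among the controls (17, 3 and 26 reads). In the CPP-Se dogs it was at 6.65, 0.0322 and 7.10 FPKM (99, 1 and 101 reads). The CPP-Se group thus spanned both ends of the 6 dogs, with a single read in CPP-Se replicate 2. The log2 fold change was 1.14 (standard error 0.76, adjusted p = 0.512 from limma). It was 2.12 (standard error 0.34, adjusted p = 0.114 from limma) without CPP-Se replicate 2, 0.67 without CPP-Se replicate 1 and 0.63 without CPP-Se replicate 3. With limma-voom on the recovered reads its sign turned, at -0.36.

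IL5RA (ENSCAFG00000005991, chromosome 20, 14314227 to 14343793, plus strand), the interleukin-5 receptor chain of eosinophils and basophils, had the opposite sign. It was at 3.06, 1.20 and 2.42 FPKM among the controls (30, 11 and 28 reads) and at 1.74, 0.782 and 0.455 FPKM among CPP-Se dogs (16, 15 and 4 reads). The groups overlapped, since CPP-Se replicate 1 lay above control replicate 2. The log2 fold change was -0.70 (standard error 0.34, unadjusted p = 0.0758, adjusted p = 0.366 from limma) and stayed negative in all 14 other settings. Among all genes tested, 9.1% had an unadjusted p under 0.05 with lower values in the CPP-Se group, and IL5RA was not one of them.

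KIT (ENSCAFG00000002065, chromosome 13, 47108504 to 47190029, plus strand) had 0, 0 and 1 reads among the controls and 4, 11 and 1 reads among CPP-Se dogs. The control dogs were all at or under the floor, as was CPP-Se replicate 3, so no fold is given. In FPKM the CPP-Se dogs, at 0.196, 0.258 and 0.0512, lay above the controls, of which the highest was at 0.0390. Such an order was found in 10.4% of all genes tested, a set without KIT. The fitted difference depends on the pseudocount at such counts, and KIT was called in none of the settings (unadjusted p = 0.0492 and adjusted p = 0.444 from limma without a filter). Unlike the other members, KIT was highest in CPP-Se replicate 2.

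By group means, the control dogs were ordered MS4A2, IL5RA, CMA1, GATA2, IL3RA, CPA3 and FCER1A, from 5.88 ± 2.93 FPKM down to 0.340 ± 0.193 FPKM. From IL5RA to IL3RA, neighbours in this order differed by less than the smaller of their SDs, and so did CPA3 and FCER1A. The CPP-Se dogs were ordered CMA1, MS4A2, GATA2, CPA3, IL3RA, FCER1A and IL5RA, from 9.08 ± 4.39 down to 0.992 ± 0.667 FPKM. There the same held from CMA1 to IL3RA, and for FCER1A and IL5RA. KIT and HDC, at the floor in most dogs, were left out of both orders. The summed FPKM of the 9 members were 12.4, 7.29 and 18.8 among the controls and 50.5, 7.86 and 40.9 among CPP-Se dogs. Since bulk blood was measured, a different number of cells of a type and a different amount of RNA per cell cannot be told apart.

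The order of the dogs was shared by several members. CPP-Se replicates 1 and 3 were the 2 highest dogs in 5 of the 9 members (CPA3, IL3RA, GATA2, FCER1A and CMA1), of which 4 were tested. Of all genes tested, 9.73% had these 2 dogs highest. CPP-Se replicate 2 was the lowest dog in 5 of the 9 members (CPA3, IL3RA, GATA2, FCER1A and MS4A2), of which 4 were tested, and in 15.6% of all genes tested. These orders are in FPKM. By recovered reads, which are not scaled to the library, it was the lowest dog for IL3RA and MS4A2 but not for CPA3, GATA2 or FCER1A, for which control replicate 2 had fewer reads. In FPKM, both orders held in 3 tested members (CPA3, GATA2 and IL3RA), against 1.56% of all genes tested. CPA3 and IL3RA had entered the test only through their high CPP-Se values, so these counts are partly fixed by the selection. This way of ordering the dogs was chosen after the values had been seen, and the shares are descriptions. The tested members closest to each other were GATA2 and IL3RA, whose centred log2 values differed by a mean of 0.21 over the 6 dogs, and those farthest apart were CPA3 and IL5RA, at 1.39.

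**Figure D2:**
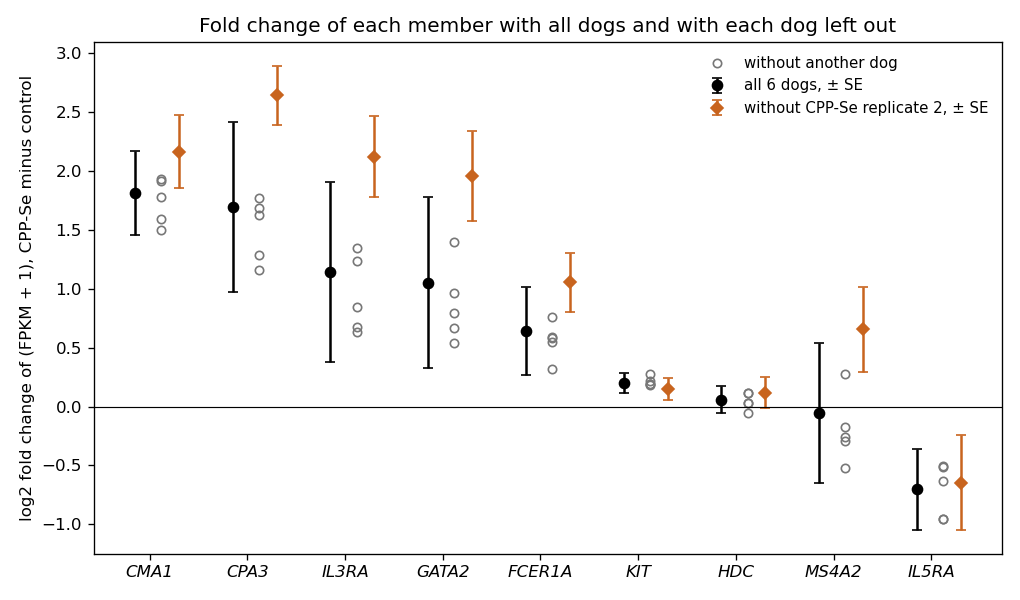
The vertical axis gives the log2 fold change of FPKM + 1, CPP-Se minus control, for each of the 9 members on the horizontal axis, as black points with standard errors for all 6 dogs, orange diamonds with standard errors without CPP-Se replicate 2, and open circles without each of the other 5 dogs. For CPA3, IL3RA, GATA2 and FCER1A the diamond is above every circle, from 1.05 for FCER1A to 2.64 for CPA3, while CMA1 stays between 1.497 and 2.163 with any dog left out and IL5RA stays below 0. The points of KIT and HDC rest on counts at the floor in most dogs.

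For each tested member, the 2 genes outside the list with the smallest mean difference from its centred profile were found among all genes tested that have a symbol. The closest to GATA2 was HPGD, which encodes the enzyme that inactivates prostaglandins, with 4, 1 and 15 reads among the controls and 47, 12 and 32 reads among CPP-Se dogs (mean difference 0.26). BPIFB3, with 4, 1 and 3 reads against 38, 1 and 32, was the closest to IL3RA (0.35) and the second to GATA2 (0.37). CELA1, an elastase, was the closest to CPA3 (0.37), with 8, 8 and 5 reads among the controls and 49, 15 and 62 among CPP-Se dogs. The second was a row named cfa-let-7d, a gene of 125 bases with 0 reads in each control dog and 6, 0 and 11 among CPP-Se dogs. CMA1 was matched by the chemokine gene CCL4 (0.21) and the antimicrobial peptide gene CAMP (0.26), IL5RA by MOGAT1 (0.11) and DCUN1D5 (0.13), and MS4A2 by H2AJ (0.23) and NRGN (0.27). NRGN is known in platelets, and the summed FPKM of 3 platelet genes were 654, 593 and 1274 among the controls and 802, 446 and 1594 among CPP-Se dogs, lowest in CPP-Se replicate 2 like MS4A2. The part of platelets in the MS4A2 values was not tested.

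Of 28 other mast cell, basophil and eosinophil genes, 17 had a row with that symbol and 7 were tested. None was called, 3 had positive and 4 negative log2 fold changes, and their median was -0.04, against -0.00 over all genes tested. Without CPP-Se replicate 2, 5 were positive and 2 negative, with a median of 0.15 against 0.02 over all genes tested. With all dogs, IL18R1 alone had an unadjusted p under 0.05 (log2 fold change -0.77, adjusted p = 0.198), and its CPP-Se dogs were all below the controls, where 12.6% of all genes tested were. PTGDR2, the prostaglandin D2 receptor of eosinophils and basophils, had the highest log2 fold change of the list, at 1.01 (standard error 0.45, adjusted p = 0.332 from limma) and 1.40 without CPP-Se replicate 2 (adjusted p = 0.210), with 5.36, 10.7 and 6.51 FPKM among the controls and 32.1, 8.54 and 13.3 FPKM among CPP-Se dogs. CCR3, the eotaxin receptor, was at 3.79, 4.49 and 6.20 FPKM among the controls and at 21.3, 2.91 and 4.83 FPKM among CPP-Se dogs. Here CPP-Se replicate 1 alone was above the controls, which differs from the profile of CPA3, GATA2 and IL3RA, high in 2 dogs.

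The defining granule proteins of eosinophils were near the floor. EPX, eosinophil peroxidase, had 0, 2 and 1 reads among the controls and 12, 3 and 5 reads among CPP-Se dogs. The gene described as bone marrow proteoglycan (ENSCAFG00000043222), the major basic protein of eosinophil granules, had 0 reads in each control dog and 7, 0 and 3 among CPP-Se dogs. PRG3 and HPGDS were at 0 in every dog. Set against the label of mature mast cells, tryptase, KIT and HDC were also at or near the floor in most dogs, while MS4A2, CMA1, CPA3 and GATA2 were above it in every dog. The genes are therefore called by their symbols rather than by a cell type.

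**Figure D3:**
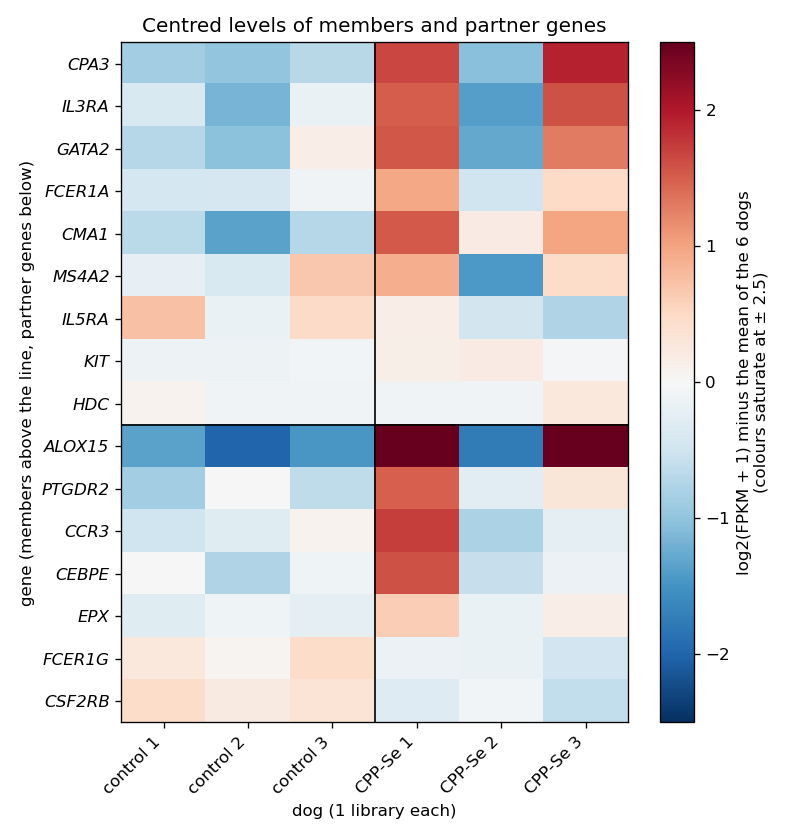
Colours give log2(FPKM + 1) of each gene in each dog minus the gene's mean over the 6 dogs, for the 9 members (above the line) and 7 partner genes (below it), with the dogs as columns. CPA3, IL3RA, GATA2 and ALOX15 are above their means in CPP-Se replicates 1 and 3 and below them in CPP-Se replicate 2, CCR3 and CEBPE are high in CPP-Se replicate 1 alone, and FCER1G and CSF2RB are lower among CPP-Se dogs.

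The 19 genes of signaling from the IgE receptor were all tested. Of these, 3 had positive and 16 negative log2 fold changes, and none passed the thresholds (lowest adjusted p = 0.162 from limma). The median was -0.41. All CPP-Se dogs lay below the controls in 10 of the 19 genes (12.6% of all genes tested) and above them in 2 (10.4% of all genes tested). An unadjusted p under 0.05 was found for 8 with negative log2 fold changes (9.1% of all genes tested) and for 2 with positive ones (6.87%). LYN and SYK, the kinases that act first at the receptor, had log2 fold changes of -0.65 and -0.68, and the adaptor GAB2 had the lowest, at -0.80 (standard error 0.20). FYN and PLCG1, which also act in T cells, had the highest, both at 0.56. FCER1G had -0.52 (standard error 0.23, adjusted p = 0.322). LYN, SYK, LCP2, GAB2 and MAPK14 are in the study's list of changed genes, so the direction of the list is not independent evidence.

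**Figure D4:**
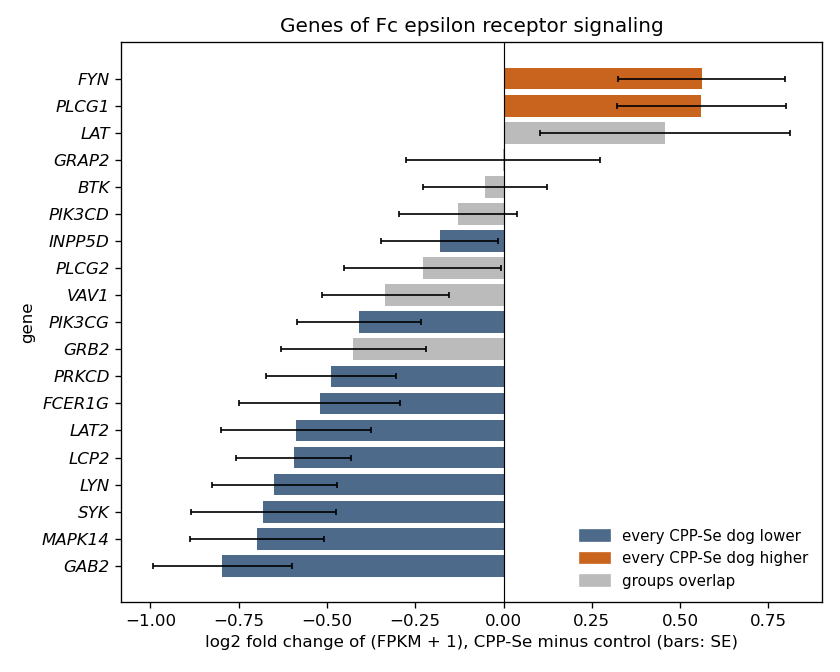
Horizontal bars give the log2 fold change of FPKM + 1, CPP-Se minus control, with standard errors, for 19 genes of Fc epsilon receptor signaling on the vertical axis, coloured by whether the dogs of the groups overlap. The bars run from -0.80 for GAB2 to 0.56 for FYN and PLCG1, with 10 genes lower in every CPP-Se dog and 2 higher.

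Most of these kinases and adaptors serve other leukocytes as well, and no marker of those cells was called with all dogs. All 4 monocyte markers tested had negative log2 fold changes (median -0.93), with summed FPKM of 110 to 122 among the controls and 32.2 to 72.7 among CPP-Se dogs. Of 5 neutrophil markers, 4 had negative log2 fold changes (median -0.80), and the summed FPKM of 2017 to 2742 and 1593 to 2083 overlapped. MMP9, the neutrophil gene with the highest log2 fold change, was at 96.3, 68.3 and 86.1 FPKM among the controls and at 729, 23.7 and 540 FPKM among CPP-Se dogs, high in the same dogs as CPA3, and it was called without CPP-Se replicate 2 (adjusted p = 0.0357 from limma). T cell (6 of 7 positive, median 0.53), B cell (6 of 6, median 0.64) and NK or cytotoxic (4 of 4, median 0.64) markers had positive log2 fold changes for the most part. The exception was CD4 (-0.61, lower without overlap), which dog neutrophils also express and which makes up most of the summed FPKM of this list, at 941 to 1303 among the controls and 727 to 890 among CPP-Se dogs, so that sum is no reading of T cells alone. The sums were 269 to 386 and 398 to 451 for B cell markers, and 7.47 to 13.1 and 19.9 to 31.1 for NK or cytotoxic markers. The part of these cell types in the values of the members and of the signaling genes was not tested.

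The partners of IL3RA, IL5RA and KIT were measured as well. CSF2RB, the chain that both interleukin receptors need to signal, was at 53.4, 44.9 and 48.7 FPKM among the controls and at 30.4, 36.3 and 24.6 FPKM among CPP-Se dogs, without overlap (log2 fold change -0.68, standard error 0.20, adjusted p = 0.191). All 5 tested genes of this list had negative log2 fold changes (median -0.40), CSF2RA the lowest at -1.07 and STAT5A the highest at -0.10. CSF2RB and CSF2RA are also in the study's list. IL5, which encodes the ligand of IL5RA, was at 3 reads in control replicate 3 and at 0 in the other dogs. The cytokine genes IL3 and CSF2 had 0 reads in every dog, and KITLG, the ligand of KIT, had a single read, in CPP-Se replicate 2.

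Of the enzymes that make lipid mediators in these cells, 5 of 8 were tested and none passed. ALOX15, a lipoxygenase of eosinophils, had the highest log2 fold change of this list, at 3.18, and its values of 129, 4.05 and 198 FPKM in CPP-Se replicates 1, 2 and 3 had the order that CPA3 and IL3RA showed within this group. Without CPP-Se replicate 2, ALOX15 was called higher (log2 fold change 4.85, adjusted p = 0.0128 from limma). ALOX5, which starts leukotriene synthesis, had the lowest log2 fold change, at -1.06 (standard error 0.24, adjusted p = 0.144), and all CPP-Se dogs were below the controls, at 38.1 to 48.3 against 67.2 to 118 FPKM. ALOX5 and ALOX15 are in the study's list. LTC4S, which makes the leukotriene C4 released by mast cells and eosinophils, was detected in control replicate 1 alone, with 7 reads.

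Plasmacytoid dendritic cells also express IL3RA. Of their markers, IRF8 and TLR9 were tested, while TCF4 and FLT3 were under the limit. IRF8 was at 13.8 to 17.3 FPKM among the controls and at 14.8, 31.0 and 9.22 FPKM in CPP-Se replicates 1, 2 and 3, highest in CPP-Se replicate 2. TLR9 was also highest in that dog, at 2.32 FPKM, with 1.47 and 1.11 FPKM in CPP-Se replicates 1 and 3 and 0.518 to 0.659 FPKM among the controls (log2 fold change 0.71, adjusted p = 0.270 from limma). The part of these cells in the IL3RA values was not tested. Red cell markers (median log2 fold change 0.31 over 7 genes), platelet markers (0.18 over 3) and progenitor markers (-0.36 over 2) each overlapped between the groups in all genes tested, and none was called. Without CPP-Se replicate 2 these medians were 0.61, 0.62 and -0.26.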

How the data were processed

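Whole blood RNA of 3 control and 3 CPP-Se dogs was measured by poly(A) RNA-seq. Paired reads were aligned by the authors (HISAT2 2.0.5, dog genome from Ensembl release 100, the source of the gene positions), who deposited FPKM per gene. featureCounts is named in the submitters' processing notes, without its handling of strand or shared reads. Multiplied by gene length, 100% of a dog's FPKM above 0 were whole multiples of a single step (within 0.01% of the multiple), which gave the reads. The 9847 genes whose mean reached 1 FPKM were tested on log2(FPKM + 1), which lowers the fold changes of low genes, by limma 3.58.1 in R 4.3.3 (lmFit, eBayes with a trend, two-sided, Benjamini-Hochberg). The second fit held the 16615 genes above 0 in any dog. Members, gene lists and the rule for named genes (every member, direct partners, the extremes of 13 lists, and the 2 nearest profiles per tested member) were chosen with earlier results of these data known. The tests were tried on simulated reads in which all dogs of a group shared the same mean for each gene. Those data held no dog that departed from its group as CPP-Se replicate 2 did here. The deposited table holds no columns of other samples.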

Additional observations from a re-analysis of the deposited data

How the results depend on the processing

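With all dogs, 3 genes, 0 members and 0 genes of the other lists were called, and 2 of the 6 tested members had an unadjusted p under 0.05. The genes called were 0 with a pseudocount of 0.1 or without a filter, 12 with a common sum of FPKM, 1 with limma-voom on recovered reads and 1 with the replicate block. With each dog left out they ranged from 0 (each control dog and CPP-Se replicate 3) over 1 (CPP-Se replicate 1) to 14 (CPP-Se replicate 2). The members called were 1 with a common sum of FPKM (CMA1) and 0 to 1 with a dog left out (CPA3, without CPP-Se replicate 2, a call lost when the filter was also dropped, which was tried after seeing the data), and the other list genes called were 0 to 2 (ALOX15 and MMP9, without the same dog). Members with an unadjusted p under 0.05 were 1 with a pseudocount of 0.1, without a filter or with limma-voom, 3 with the replicate block (IL3RA being the added gene), and 1 (control replicate 1 or 3, or CPP-Se replicate 3) to 4 (CPP-Se replicate 2) with a dog left out. Of 126 fold changes of members under the alternatives, 119 kept their sign and side of the thresholds, 2 passed them and 5 changed sign: MS4A2 (0.025 with a common sum of FPKM and -0.52 to 0.65 with a dog left out), IL3RA (-0.36 with limma-voom) and HDC (-0.054 to 0.12 with a dog left out). A common sum of FPKM moved the median log2 fold change of all genes to 0.13. The labels name no pairing of dogs. Deviations of same-numbered dogs from their group means had correlations of 0.02, -0.09 and -0.04, which with 3 dogs per group cannot exclude a link by number. The replicate block changed no call of a member. The causes of these changes were not tested. Depth limits HDC, KIT and FCER1A, with 19 reads or fewer in any dog.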

Other observations

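KIT had its most reads, 11, in CPP-Se replicate 2, and so did the progenitor marker CD34, with 0, 0 and 1 reads among the controls and 1, 19 and 3 among CPP-Se dogs. CD34 was picked with its values known. MYB, of the same progenitor list and under the limit for the test, was also highest in that dog, with 23 reads against 0 to 8 in the others. FLI1, a tested gene of the list, was second highest there, at 31.1 FPKM. TAL1, also tested, was lowest in that dog in FPKM, at 9.90 against 16.3 to 23.1 in the others. By reads TAL1 was not lowest there, with 610 against 462 to 791. HRH4, the histamine receptor of eosinophils and mast cells, had 0, 0 and 5 reads among the controls and 3, 3 and 11 among CPP-Se dogs, and SLC18A2, which loads monoamines into granules, had 4, 3 and 5 reads against 9, 0 and 4. Their groups overlapped, and both genes were under the limit for the test.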
